A study of Homo sapiens with 16 samples.

Results

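The genes described here are 40 chaperones, folding enzymes, degradation factors and stress sensors of the endoplasmic reticulum (ER), with 4 subunits of the translocon and the COPII coat. They were taken by symbol from a list of such genes, chosen with earlier results of these data known. All 40 symbols matched a row of the 58243 in the deposited count table, and all 40 passed the filter on low counts that left 16647 genes to test. The cells were U-251 MG, an established human glioblastoma line, and the RNA was poly(A)-selected. There were 4 groups of 4 libraries each. Cultures received DMSO as the vehicle, 0.06 µM of simvastatin, 0.6 µM of irinotecan, or both drugs at those doses, called the combination. Treatment began 24 h after seeding and lasted 48 h, and all groups grew in the same serum-supplemented medium. Simvastatin inhibits HMG-CoA reductase, an early enzyme of cholesterol synthesis. Irinotecan is the prodrug of a topoisomerase I inhibitor. The study asked which pathways and genes the drugs affect alone and together.

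Proteins bound for the membrane or the cell surface enter the ER through the Sec61 channel and fold there with the help of the Hsp70 chaperone BiP, the Hsp90 chaperone GRP94, lectin chaperones and disulfide isomerases. Chains that fail to fold are passed back to the cytosol and degraded (ER-associated degradation, ERAD), and folded cargo leaves in COPII vesicles. When unfolded chains build up, the sensors IRE1, PERK and ATF6 start the unfolded protein response. It raises transcription of chaperone and ERAD genes through XBP1 and ATF6, while PERK signals through ATF4 and CHOP.

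Library totals ran from 24159673 to 32318888 counts, and 2.37% to 4.58% of counts came from mitochondrially encoded genes. Levels are in CPM, counts scaled to a common library size, with TMM-scaled library sizes. Nothing in the labels says that libraries of a group were separate cultures, so the p-values may reflect technical spread alone. In these bulk libraries, fewer cells of a type and less RNA per cell cannot be told apart. As a check of the cell type, 8 of 10 glial markers exceeded 1 CPM in every group. They were led by CD44 and VIM, with GFAP at 203 CPM with DMSO, whereas AQP4 and OLIG2 had group means below 0.1 CPM. Of 6 epithelial markers 4 also exceeded 1 CPM in every group. With DMSO they summed to 412 to 470 CPM, beside 7506 to 7781 CPM for the glial markers. CD3E was at 0 in all libraries, and the summed leukocyte markers stayed below 1 CPM.

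The promoters of some of these genes hold a sequence element through which the pathway is known to act. The ER stress response element (ERSE) is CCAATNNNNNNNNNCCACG, and ERSE-II is ATTGGNCCACG. Both are known as sites of ATF6 with the CCAAT-binding factor NF-Y. RefSeq promoter windows on GRCh38.p14, from 250 bases before to 50 after the start, were available for 36 of the 40 genes and were searched on both strands. An exact ERSE stood in 7 of the 36, or 19.4%, against 0.0916% of the 27305 genes with a window. An exact ERSE-II stood in 3, or 8.33%, against 0.0696%. The elements are known from genes of this response, and the 40 genes were chosen as such genes. The shares are therefore a description and not a test. A match is a run of letters and not a proven site. The first 3 stretches below belong to the genes with a match that simvastatin raised. The other 6 belong to genes with a match that it did not change by the test, and were chosen for that contrast after the values were seen. Capitals mark the element, each stretch runs 5′ to 3′ on the strand of the gene, and an element on the opposite strand reads in reverse complement.
HERPUD1, chr16:56932010-56932050, plus strand, ERSE-II: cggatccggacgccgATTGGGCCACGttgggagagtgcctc
XBP1, chr22:28800588-28800636, minus strand, ERSE: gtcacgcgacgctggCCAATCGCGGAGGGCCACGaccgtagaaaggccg
HSPA5, chr9:125241376-125241424, minus strand, ERSE: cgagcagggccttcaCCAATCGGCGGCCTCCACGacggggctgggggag
HSP90B1, chr12:103930201-103930354, plus strand, ERSE: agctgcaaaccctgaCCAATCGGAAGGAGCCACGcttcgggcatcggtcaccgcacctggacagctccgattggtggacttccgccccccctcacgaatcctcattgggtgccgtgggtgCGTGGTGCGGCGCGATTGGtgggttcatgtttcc
PDIA6, chr2:10812838-10812886, minus strand, ERSE: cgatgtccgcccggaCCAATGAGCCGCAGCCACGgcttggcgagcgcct
CALR, chr19:12938369-12938417, plus strand, ERSE: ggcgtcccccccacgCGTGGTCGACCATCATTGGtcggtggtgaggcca
CRELD2, chr22:49918539-49918587, plus strand, ERSE: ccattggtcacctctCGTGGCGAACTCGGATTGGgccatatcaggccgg
SDF2L1, chr22:21642099-21642139, plus strand, ERSE-II: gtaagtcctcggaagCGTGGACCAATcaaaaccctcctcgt
HYOU1, chr11:119057259-119057405, minus strand, ERSE-II: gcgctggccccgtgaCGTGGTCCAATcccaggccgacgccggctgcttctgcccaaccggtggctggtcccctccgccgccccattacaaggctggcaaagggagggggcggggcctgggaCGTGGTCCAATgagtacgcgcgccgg
CANX is the tenth gene with a match, also an ERSE. HSP90B1 and HYOU1 each carried a pair of matches within the printed stretch. The core TGACGTGG, known as a site of XBP1 and ATF6, was found in 3 of 36 windows (DNAJC10, HYOU1 and TXNDC5) against 0.927% of all genes, and in HYOU1 it overlaps an ERSE-II. The composite site TGATGNAAT, known for ATF4, was in none of the 36 and in 1.22% of all genes.

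The level of the 40 genes spanned a wide range. Per kilobase of exon, which allows genes to be compared, the highest group mean with DMSO was that of CALR (361 CPM per kb), a lectin chaperone and calcium store. It was followed by HSPA5 (313), the gene of BiP, PDIA3 (292), HSP90B1 (278), the gene of GRP94, and CANX (238). P4HB and PDIA4, both disulfide isomerases, held 187 and 158 CPM per kb. SEC61A1, the pore subunit of the translocon, was next at 70.8. The sensors were far less abundant. ATF6 stood at 11.2 CPM per kb, EIF2AK3 (PERK) at 5.73 and ERN1 (IRE1) at 0.771, and DERL3 was lowest at 0.492. With simvastatin HSPA5 took the first place, at 407 CPM per kb against 351 for CALR. The DMSO libraries gave a summed level of the 40 genes of 10496 to 11136 CPM and the simvastatin libraries one of 11526 to 12277 CPM. The sum was 9747 to 9883 CPM under irinotecan and 10733 to 11200 CPM under both drugs. The sums with simvastatin lay above, and those with irinotecan below, every DMSO sum, while the combination overlapped with DMSO.

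**Figure D1:**
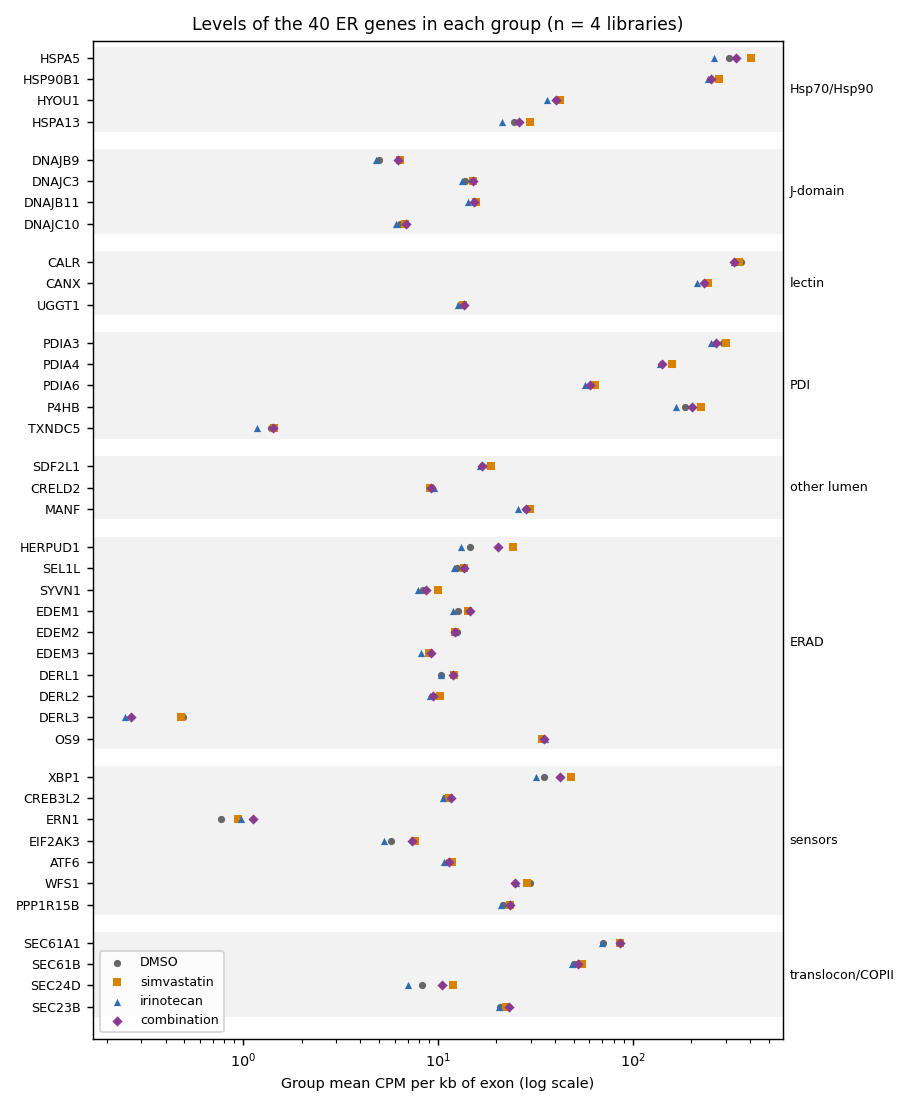
Group mean CPM per kb of exon (log axis) of the 40 ER genes, ordered by role, with 1 symbol per treatment group of 4 libraries. The 7 genes from CALR to PDIA4 exceed 100 CPM per kb in every group, and HERPUD1, XBP1, SEC24D and EIF2AK3 show the widest gaps between the groups with and without simvastatin.

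Simvastatin alone raised 13 of the 40 genes and lowered 0 by edgeR's quasi-likelihood test with Benjamini-Hochberg adjustment over all genes, at an adjusted p under 0.05, the rule for every call below. The members called higher were 32.5%, against 3.89% of all genes tested, and 2.11% of all genes were called lower. None of the 40 was lower at an unadjusted p under 0.05 or by DESeq2 either. The median log2 fold change of the 40 genes was 0.07, beside -0.01 over all genes. The 13 genes came from every step of the pathway except the lectin chaperones and the small lumen proteins, and 12 of them had every simvastatin library above every DMSO library. The exception was EDEM1, and the share of all genes without overlap was not computed. Glial markers summed to 7506 to 7781 CPM with DMSO and 7260 to 7385 with simvastatin, epithelial markers to 412 to 470 and 375 to 406, and their part in the result was not tested.

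The ERAD factor HERPUD1, which organises the membrane ubiquitin ligase complex, had the largest change of the 40 genes. Its level in replicates 1 to 4 was 79.9, 74.9, 71.9 and 76.3 CPM with DMSO and 128, 120, 116 and 136 CPM with simvastatin. The lowest simvastatin library stood well above the highest DMSO library. The log2 fold change was 0.72 (SE 0.05, n = 4 against 4, edgeR adjusted p = 2.02e-12), or 1.65-fold. SYVN1, the ubiquitin ligase HRD1 of the same complex, rose by 0.24 (SE 0.05, edgeR adjusted p = 0.00188), and DERL1, a channel subunit, by 0.21 (SE 0.04, edgeR adjusted p = 0.000627). EDEM1, which directs mannose-trimmed glycoproteins to degradation, rose by 0.18 (edgeR adjusted p = 0.0274). This call was lost without DMSO replicate 1, 2 or 4 or simvastatin replicate 3 or 4, where the adjusted p was 0.0813 to 0.12. The other 6 ERAD genes (SEL1L, EDEM2, EDEM3, DERL2, DERL3 and OS9) were not called. SEL1L, the partner of SYVN1, had a log2 fold change of 0.12 with a 95% interval of 0.02 to 0.22. SYVN1 shares 7.24% of its exon bases with FAU on the same strand and 6.48% with MRPL49 on the opposite strand, so its counts are uncertain there. Whether the counting used strand is not given in the sources used here.

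Among the sensors and transducers, XBP1, EIF2AK3 and ERN1 rose and ATF6 was not called. XBP1, the transcription factor whose mRNA IRE1 splices, was at 108.5, 98.4, 107.5 and 108.9 CPM with DMSO and at 149.6, 140.1, 134.1 and 161 CPM with simvastatin. The groups did not overlap. The log2 fold change of XBP1 was 0.46 (SE 0.05, edgeR adjusted p = 1.54e-08). Gene counts do not separate its spliced and unspliced forms. EIF2AK3, the kinase PERK, was at 30.3, 30.2, 32.8 and 31.3 CPM with DMSO and at 42.5, 37.7, 43.6 and 41.5 CPM with simvastatin. Again no libraries overlapped, and the log2 fold change was 0.41 (SE 0.05, edgeR adjusted p = 1.3e-06). ERN1, the kinase and nuclease IRE1, was scarce, with 8.32, 8.53, 8.17 and 8.49 CPM in the DMSO libraries and 10.3, 9.53, 10.2 and 11 CPM with simvastatin. Its log2 fold change was 0.29 (SE 0.08, edgeR adjusted p = 0.0311). The ERN1 call was lost without any 1 DMSO library and without simvastatin replicate 1 or 4, with adjusted p of 0.0539 to 0.125. ATF6 itself had a change of 0.07 with an interval of -0.03 to 0.16. CREB3L2, a related membrane-bound factor, PPP1R15B, a phosphatase subunit that reverses the PERK signal, and WFS1, an ER membrane protein of calcium handling, were not called.

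The Hsp70 and Hsp90 class divided. HSPA5 was at 1274.5, 1178, 1246 and 1195 CPM with DMSO and at 1609, 1506, 1512 and 1737 CPM with simvastatin, so that every simvastatin library was higher. Its log2 fold change was 0.38 (SE 0.04, 95% interval 0.30 to 0.46, edgeR adjusted p = 7.37e-08). HSP90B1, present at nearly the same level, was at 1321.5, 1268, 1345 and 1286 CPM with DMSO and at 1284, 1294, 1289 and 1336 CPM with simvastatin. These libraries lay within the same range, and the log2 fold change was -0.01 with an interval of -0.07 to 0.06. HYOU1, the nucleotide exchange factor of BiP, had a change of 0.05 (interval -0.02 to 0.13). HSPA13, a microsomal Hsp70, rose by 0.26 (SE 0.05, edgeR adjusted p = 0.00185), from 98.8 to 109 CPM across the DMSO libraries to 114 to 132 CPM. Of the J-domain proteins, which pass clients to BiP, DNAJB9 rose by 0.36 (SE 0.09, edgeR adjusted p = 0.00735). Its DMSO replicate 3, at 17.1 CPM, stood above the other DMSO libraries (12.7 to 13.5) and just below the lowest simvastatin library (17.3). DNAJB9 shares 3.49% of its exon bases with PNPLA8 and 6.45% with THAP5, both on the opposite strand. DNAJC3, DNAJB11 and DNAJC10 were not called, with log2 fold changes of 0.13, 0.00 and 0.08.

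P4HB, which is a disulfide isomerase and also the beta subunit of collagen prolyl hydroxylase, was the 1 called gene of the 5 isomerases. It rose from 1049, 941.4, 1002 and 965.9 CPM with DMSO to 1225, 1164, 1162 and 1229 CPM, a log2 fold change of 0.27 (SE 0.04, edgeR adjusted p = 2.85e-06) with no overlap of libraries. For the 4 others the change was 0.05 (PDIA3), 0.01 (PDIA4), 0.00 (PDIA6) and 0.05 (TXNDC5). The intervals of PDIA3, PDIA4 and PDIA6 lay between -0.07 and 0.12, below that of P4HB (0.20 to 0.35). TXNDC5 is uncertain, since it shares 60.6% of its exon bases with the read-through gene BLOC1S5-TXNDC5. The lectin chaperones CALR and CANX and the glycoprotein sensor UGGT1 had changes of -0.04, 0.04 and 0.05. The small lumen proteins MANF, CRELD2 and SDF2L1, which are known as sensitive targets of ATF6 and XBP1, had changes of 0.06, -0.01 and 0.04. The intervals were -0.03 to 0.15 for MANF, -0.12 to 0.10 for CRELD2 and -0.12 to 0.20 for SDF2L1, so a rise as large as that of HERPUD1 lay outside all 3.

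At the entry and exit of the ER, SEC61A1 and SEC24D rose. SEC24D, a cargo-binding subunit of the COPII coat, was at 79.4, 80.7, 85.6 and 83.9 CPM with DMSO and at 117.6, 113.5, 117.1 and 126.4 CPM with simvastatin, with no overlap. Its log2 fold change of 0.53 (SE 0.04, edgeR adjusted p = 3.57e-10) was second to that of HERPUD1. SEC61A1 rose by 0.29 (SE 0.04, edgeR adjusted p = 2.84e-06), from 317 to 349 CPM across the DMSO libraries to 390 to 426 CPM. SEC61B, the small tail-anchored subunit, had a change of 0.15 (interval 0.04 to 0.25) and SEC23B, the inner coat subunit, 0.12 (interval 0.03 to 0.21), and neither was called.

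The 10 genes with an ERSE or ERSE-II did not move as one. HERPUD1, XBP1 and HSPA5 were called higher with simvastatin, and the 7 others (HSP90B1, PDIA6, CALR, CANX, CRELD2, SDF2L1 and HYOU1) were not, with log2 fold changes from -0.04 to 0.05. Among the 11 called genes with a promoter window, 3 held one of these elements, beside 7 of the 25 genes that were not called. DERL1 and SEC24D, both called, had no window.

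**Figure D2:**
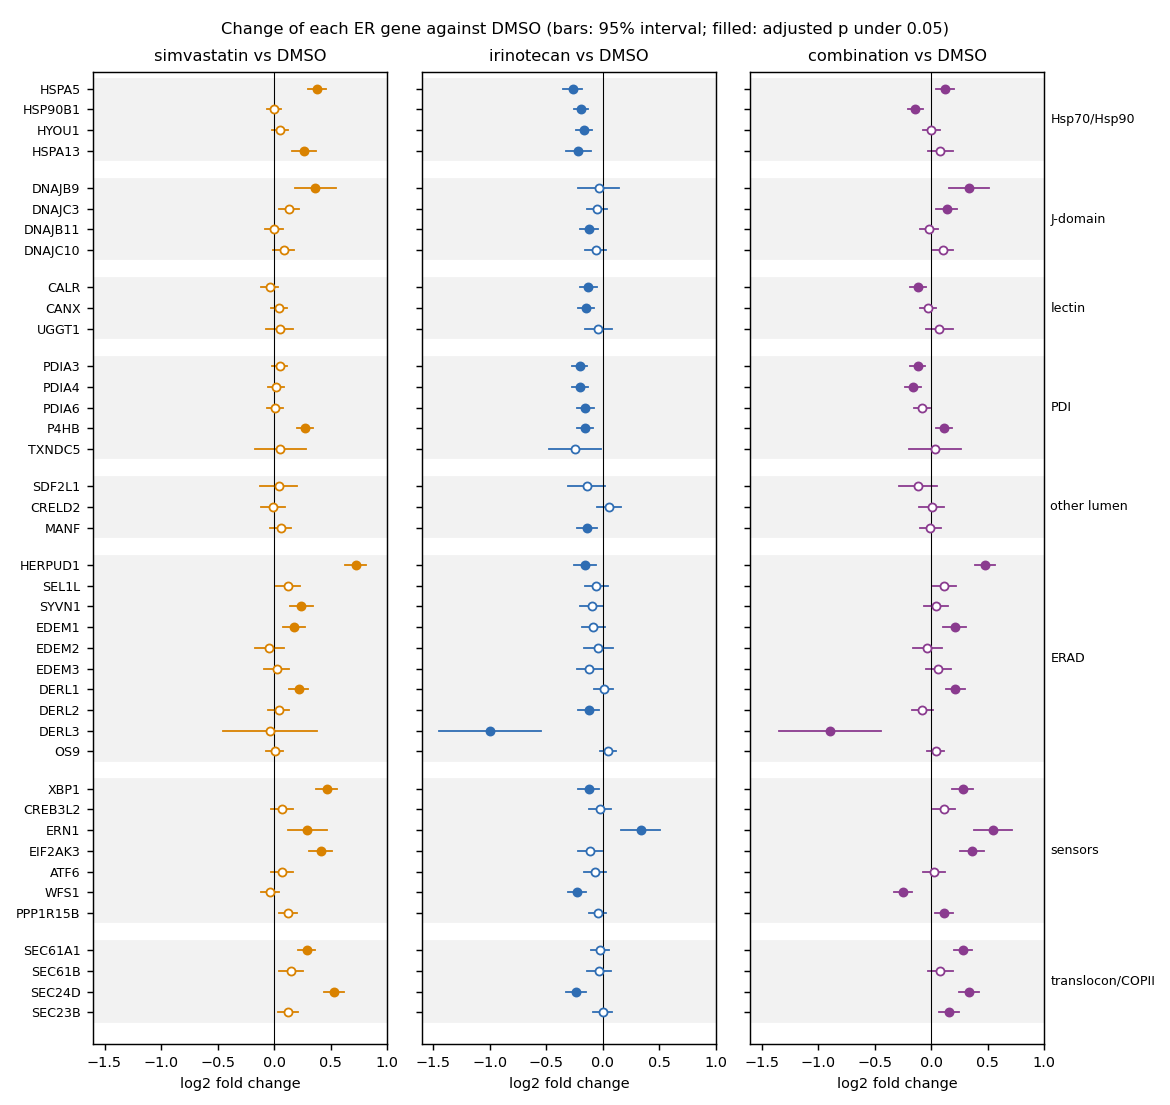
Log2 fold change against DMSO of each of the 40 genes with simvastatin, irinotecan and the combination, ordered by role. Points are edgeR estimates from 4 libraries a group, bars 95% intervals and filled points calls at an adjusted p under 0.05. The simvastatin panel has 13 filled points, all right of 0, and the irinotecan panel has 18 left of 0 and 1, ERN1, right of it.

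Irinotecan alone lowered 18 of the 40 genes and raised 1. The members called lower were 45%, against 11.7% of all genes, and the 1 called higher was 2.5% against 12.4%. The median log2 fold change was -0.12, beside 0.00 over all genes. The falls were small. Apart from DERL3 they ran from -0.12 to -0.27 on the log2 scale, and 16 of the 18 had every irinotecan library below every DMSO library. The share of all genes without such overlap was not computed. The number of members called depended on the scaling. With library sizes alone in place of TMM factors, 77.8% of all called genes were higher in place of 51.4%, and 9 of the 40 genes were called lower (HSPA5, HSP90B1, HYOU1, HSPA13, PDIA3, PDIA4, DERL3, WFS1 and SEC24D) and 2 higher. Of all 16647 genes, 1079 were then called lower and 3789 higher. The 9 other falls kept their sign and lost the call, while 12 genes that were not called changed sign. Glial markers summed to 5600 to 5751 CPM with irinotecan against 7506 to 7781 with DMSO, and 7 of the 8 tested fell. Epithelial markers summed to 574 to 635 CPM against 412 to 470, with EPCAM at 0 in the irinotecan libraries, and their part in the result was not tested.

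All 4 genes of the Hsp70 and Hsp90 class fell with irinotecan. HSPA5 was at 1033.5, 1047, 1022 and 966.1 CPM, below every DMSO library, a log2 fold change of -0.27 (SE 0.04, edgeR adjusted p = 6.58e-06). HSP90B1 was at 1119, 1163, 1151 and 1130.5 CPM, again below every DMSO library, with a change of -0.19 (SE 0.03, edgeR adjusted p = 1.4e-05). HSPA13 and HYOU1 fell by 0.22 and 0.17. The disulfide isomerases moved with them. PDIA3 and PDIA4 each fell by 0.20, P4HB by 0.16 and PDIA6 by 0.15, and TXNDC5, at 4.38 to 5.9 CPM, had a change of -0.25 with an interval of -0.48 to -0.02 and was not called. Of the lectin chaperones CANX fell by 0.15 and CALR by 0.13. DNAJB11 fell by 0.12 and MANF by 0.14. The DNAJB11 call was lost without DMSO replicate 4 (edgeR adjusted p = 0.103), and that of MANF without DMSO replicate 1 or irinotecan replicate 4 (0.0722 and 0.0715).

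In ERAD 3 of 10 genes were called lower, and in the translocon and coat 1 of 4, with 0 called higher. SEC24D was at 67.4, 67.9, 73.2 and 70.9 CPM with irinotecan, below all DMSO libraries, and fell by 0.24 (SE 0.04, edgeR adjusted p = 9.7e-05). HERPUD1 was at 69, 69.3, 64.5 and 69.2 CPM and fell by 0.16 (SE 0.05, edgeR adjusted p = 0.0121), a call that was lost without DMSO replicate 1 or irinotecan replicate 3 (0.0551 and 0.0538). DERL2 fell by 0.13 (edgeR adjusted p = 0.0368), and lost the call without DMSO replicate 2, 3 or 4 or irinotecan replicate 2, 3 or 4 (0.0509 to 0.0957). DERL3, another derlin of the membrane channel, had the largest fitted change, to 0.501 of the DMSO level (SE 0.22 on the log2 scale, edgeR adjusted p = 0.000919), but it was listed at only 1.62 to 2.07 CPM with DMSO and 0.724 to 1.04 with irinotecan. It also shares 77.0% of its exon bases with SMARCB1 on the opposite strand, at 91.8 CPM, so its value is uncertain. The other 7 ERAD genes and the 3 remaining translocon and coat genes were not called.

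Of the sensors, ERN1 was the 1 gene that irinotecan raised, to 10.2, 11.2, 9.58 and 11.2 CPM from 8.17 to 8.53 CPM with DMSO. Every irinotecan library was above every DMSO library, and the log2 fold change was 0.33 (SE 0.08, edgeR adjusted p = 0.00299). WFS1 fell by 0.23 (SE 0.04, edgeR adjusted p = 3.62e-05), from 130 to 137 CPM across the DMSO libraries to 110 to 117 CPM. XBP1 was called lower by a narrow margin. Its irinotecan libraries at 98.8, 99.3, 95.8 and 94.7 CPM overlapped with DMSO replicate 2 (98.4), and the change of -0.12 (edgeR adjusted p = 0.048) held in only 9 of 24 alternative analyses. Leaving out 1 library at a time lost it in 10 of 16 cases, with adjusted p of 0.0502 to 0.127, namely DMSO replicates 1, 3 and 4, all 4 irinotecan libraries, simvastatin replicate 1 and combination replicates 2 and 4. EIF2AK3, with a change of -0.11 (interval -0.22 to -0.01), ATF6, CREB3L2 and PPP1R15B were not called.

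**Figure D3:**
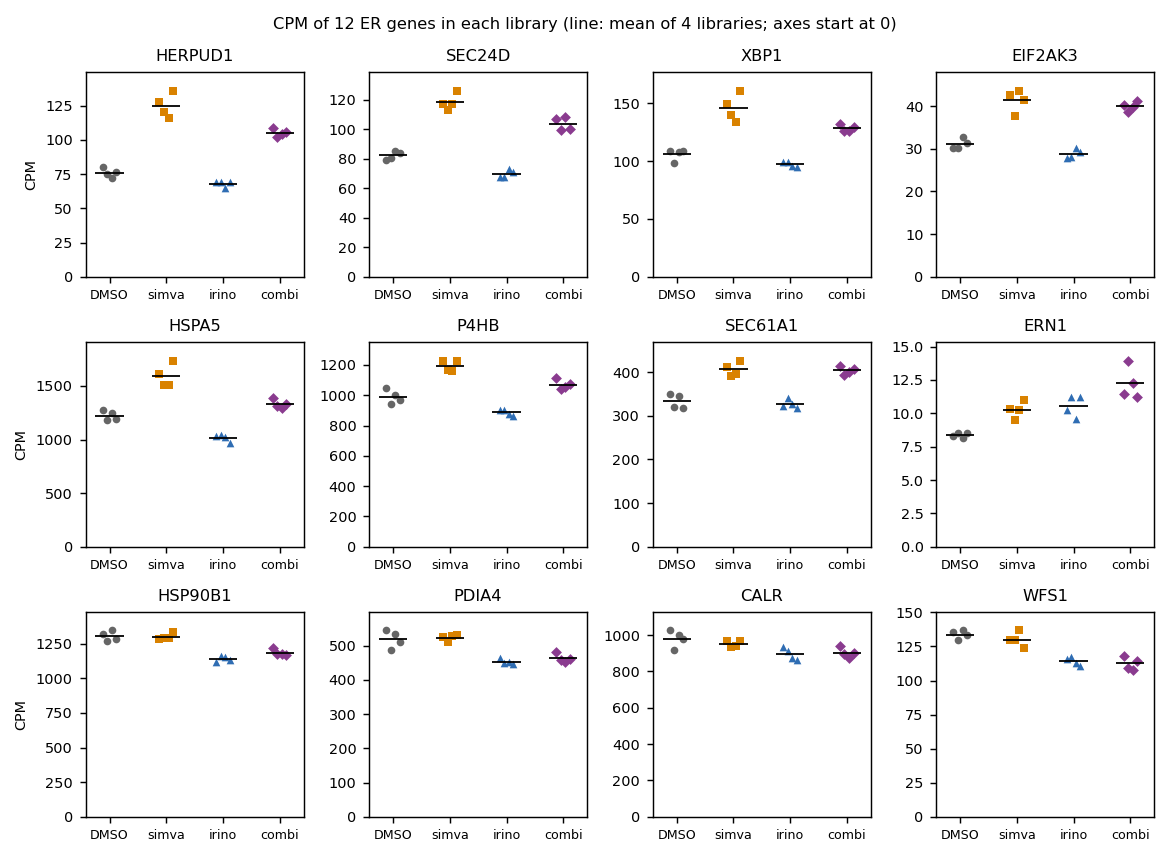
CPM of 12 of the genes in each of the 16 libraries, by group, with axes from 0 and a line at the mean of 4 libraries. HERPUD1, SEC24D, XBP1, EIF2AK3, HSPA5, P4HB and SEC61A1 stand higher in both groups with simvastatin than in the matching group without it, the means of HSP90B1, PDIA4, CALR and WFS1 are lower in both groups with irinotecan, and ERN1 is lowest with DMSO.

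With both drugs 14 of the 40 genes were higher than with DMSO and 6 were lower. The shares were 35% against 15.1% of all genes, and 15% against 13%. The median log2 fold change was 0.07, beside 0.00 over all genes. With library sizes alone, 73.4% of all called genes were higher in place of 53.8%, and the members' counts became 20 and 4. Of all 16647 genes, 3868 were then called higher and 1401 lower. Glial markers summed to 5532 to 5695 CPM with the combination against 7506 to 7781 with DMSO, and 7 of the 8 tested fell. Epithelial markers summed to 509 to 578 CPM against 412 to 470, with 3 of the 4 tested higher, and their part in the result was not tested. This comparison shares its DMSO libraries with those of the single drugs, so the values are set side by side without a measure of likeness. Of the genes called for both single drugs, ERN1 was higher in all 3 comparisons and had the largest rise with the combination. Its libraries were at 11.5, 14, 12.3 and 11.2 CPM, all above DMSO, and the log2 fold change was 0.55 (SE 0.08, edgeR adjusted p = 6.38e-06), beside 0.29 with simvastatin and 0.33 with irinotecan. HSPA5, HERPUD1, XBP1, P4HB and SEC24D, up with simvastatin and down with irinotecan, were higher with both. HSPA13 had the same single-drug calls, and its change of 0.08 with the combination was not called (interval -0.03 to 0.19, edgeR adjusted p = 0.296). HERPUD1 was at 109, 102, 105 and 105 CPM, a change of 0.47 (SE 0.05, edgeR adjusted p = 1.71e-09). The changes were 0.34 for SEC24D and 0.28 for XBP1, and smaller for HSPA5 (0.12) and P4HB (0.11). These last calls were weak: that of HSPA5 (edgeR adjusted p = 0.0246) was lost without DMSO replicate 2 or 4 or combination replicate 1 or 4 (0.052 to 0.102), and that of P4HB (0.0162) without DMSO replicate 2 or 4 or combination replicate 1 (0.0604 to 0.0771).

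EIF2AK3, DNAJB9, SEC61A1, DERL1 and EDEM1 were higher with the combination by 0.36, 0.33, 0.28, 0.21 and 0.21, and for these genes irinotecan alone had not been called. DNAJC3 (0.13), SEC23B (0.15) and PPP1R15B (0.11) were called in this comparison with DMSO and not with either drug alone, which is no test of a difference. The DNAJC3 call was lost without DMSO replicate 4 or combination replicate 1 or 3 (edgeR adjusted p of 0.0588 to 0.0822), and the PPP1R15B call without DMSO replicate 1, 2 or 3 or combination replicate 2 or 3 (0.0543 to 0.139). The 6 genes lower with the combination, a share of 15% that lies near the 13% of all genes, were lower with irinotecan too. HSP90B1 was at 1217, 1175, 1176 and 1170 CPM, below every DMSO library, and its change was -0.14 (SE 0.03, edgeR adjusted p = 0.000803). PDIA4 had -0.17, PDIA3 -0.12, CALR -0.12, WFS1 -0.25 and DERL3 -0.89. CALR overlapped with DMSO, and its call was lost without DMSO replicate 1 or combination replicate 3 (0.0676 and 0.0522). The remaining 20 genes were not called, and 12 of them were called for no treatment against DMSO: DNAJC10, SEL1L, EDEM2, EDEM3, SDF2L1, CRELD2, CREB3L2, ATF6, SEC61B, OS9, UGGT1 and TXNDC5.

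The effect of simvastatin on cells that also received irinotecan was read from the combination against irinotecan, which uses no library of the comparison of simvastatin with DMSO. Here 19 of the 40 genes were higher, or 47.5% against 4.45% of all genes, and 0 were lower, against 1.5% of all genes by edgeR. No member was lower at an unadjusted p under 0.05 or by DESeq2. The median log2 fold change was 0.15. With library sizes alone 62.9% of all called genes were higher in place of 74.8%. That scaling called 16 of the 40 higher, beside 594 of all 16647 genes. The sizes were close to those without irinotecan. HERPUD1 rose by 0.63 (SE 0.05) here and 0.72 there, SEC24D by 0.57 and 0.53, EIF2AK3 by 0.47 and 0.41, XBP1 by 0.40 and 0.46, and HSPA5 by 0.39 and 0.38. SEC61A1 rose by 0.30 and 0.29, and P4HB by 0.27 in both. In all 11 genes were called in both settings, 2 (ERN1 and SYVN1) without irinotecan, 8 on irinotecan and 19 in neither. Those 8 were DNAJC3, DNAJC10, SEL1L, EDEM3, CANX, HYOU1, SEC23B and PPP1R15B, with log2 fold changes of 0.12 to 0.19. Of these, the calls of CANX, DNAJC10, EDEM3, PPP1R15B, SEC23B and SEL1L were lost without irinotecan replicate 2 and without combination replicate 3. Some of them were also lost without DMSO replicate 4, simvastatin replicate 1, irinotecan replicate 1 or 3, or combination replicate 1, 2 or 4, with edgeR adjusted p up to 0.176. HSP90B1 again did not move by the test (0.05, interval -0.01 to 0.12), nor did PDIA4 (0.03), CALR (0.01), CRELD2 (-0.05) or SDF2L1 (0.02).

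**Figure D4:**
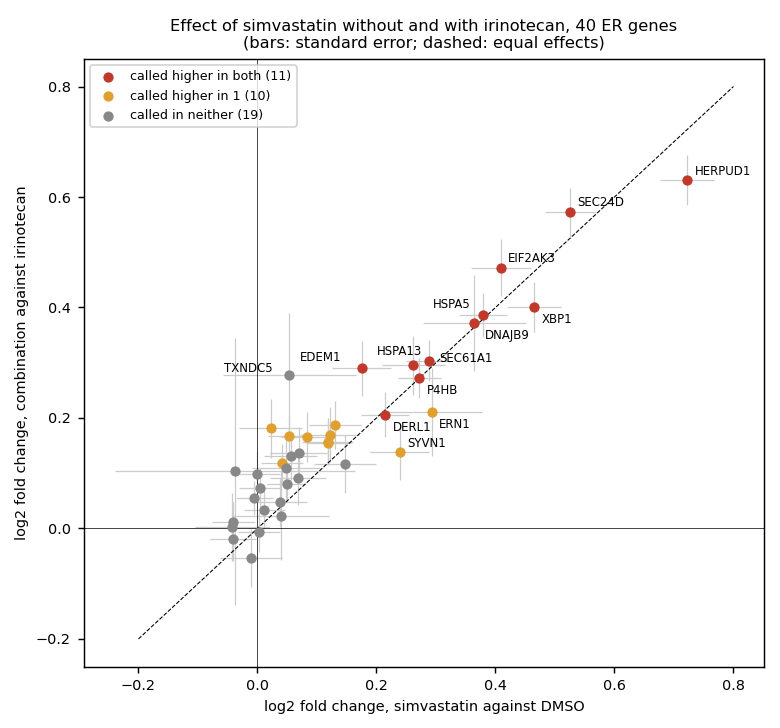
Log2 fold change with simvastatin for the 40 genes, against DMSO on the horizontal axis and on top of irinotecan on the vertical axis, with standard errors and a dashed line of equal effects. The 11 genes called higher in both settings lie close to the line, with EDEM1 farthest from it at 0.18 and 0.29, DERL1 at 0.21 on both axes and HERPUD1 highest at 0.72 and 0.63.

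The test of whether the effects add up on the log2 scale is the interaction, the combination minus each single-drug effect. It called none of the 40 genes by edgeR in either direction, against 0% of all genes higher and 0.012% lower. Without adjustment 2 genes passed 0.05 in edgeR, HYOU1 at 0.0306 and EDEM3 at 0.0427, with interaction estimates of 0.11 and 0.16 on the log2 scale. The lowest edgeR adjusted p was 0.823. DESeq2 also called none. The interaction estimate was positive for 31 of the 40 genes with a median of 0.04. The largest was that of TXNDC5 at 0.22 with an interval of -0.10 to 0.55. For the abundant genes HSPA5 and P4HB the intervals were -0.11 to 0.12 and -0.10 to 0.10. For HERPUD1, which was less abundant, the interval was -0.22 to 0.04.

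Against simvastatin alone, the combination was lower for 12 of the 40 genes, or 30% against 11.7% of all genes, and higher for 1, or 2.5% against 13.9%. The 12 were HSPA5, HSP90B1, HERPUD1, XBP1, SYVN1, PDIA3, PDIA4, P4HB, DERL3, WFS1, HSPA13 and SEC24D. HSPA5 had the largest of these changes apart from DERL3, -0.26 (SE 0.04, edgeR adjusted p = 1.04e-05), followed by HERPUD1 at -0.25. The genes higher with simvastatin that did not differ here by the test were DNAJB9, EDEM1, EIF2AK3, SEC61A1 and DERL1, with changes of -0.05 to 0.03. ERN1 was the gene called higher, at 0.25 (SE 0.08, edgeR adjusted p = 0.0204), and that call was lost without simvastatin replicate 2 or combination replicate 2 (0.0726 and 0.115). Between the same groups 7 of the 8 tested glial markers were lower, with sums of 5532 to 5695 against 7260 to 7385 CPM, and 3 of the 4 tested epithelial markers were higher, with sums of 509 to 578 against 375 to 406 CPM. Their part in the result was not tested. With library sizes alone 73.4% of all called genes were higher in this comparison in place of 54.1%.

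Further genes of the pathway were read from lists that were chosen with earlier results of these data known. The shares called are therefore a description and not a test. In the ATF4 and CHOP list 18 of 20 tested genes rose with simvastatin, with a median log2 fold change of 0.48. Over all genes 3.89% were called higher. All 20 were higher at an unadjusted p under 0.05 in edgeR. PERK activity was not measured. CHAC1, a glutathione-degrading enzyme, rose by 1.24, and STC2, a secreted glycoprotein, by 1.00. TRIB3, a pseudokinase, rose by 0.88, ATF4 itself by 0.30 and DDIT3, the gene of CHOP, by 0.43. ASNS, at 0.737 CPM with DMSO, was too scarce to weigh. PPP1R15A (GADD34, which undoes the PERK signal) and VLDLR were not called. With irinotecan this list divided, with 5 higher (SESN2, TRIB3, NUPR1, CEBPB and DDIT3) and 8 lower, among them VEGFA at -0.79, STC2 at -0.55 and ATF4 at -0.23. Of all genes 12.4% were called higher and 11.7% lower with irinotecan. With the combination 13 of the 20 were higher and 2 lower, against 15.1% and 13% of all genes. In this list 1 gene passed the interaction test, DDIT4, whose change with the combination was -0.02 beside 0.76 and -0.33 with the single drugs. At an unadjusted p under 0.05 the interaction was below 0 for 10 of the 20 genes. The eIF2 kinases and eIF2B, which act upstream of ATF4, held 2 of 11 called higher with simvastatin. With irinotecan 0 of 11 were called by edgeR, 0 by DESeq2 and 0 at an unadjusted p under 0.05.

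The COPII coat and ER exit list had the highest share after the ATF4 and CHOP list, with 13 of 22 other genes higher with simvastatin and a median of 0.19. KDELR3 and KDELR2, receptors that return escaped ER proteins, rose by 0.67 and 0.37, SEC24A by 0.51 and SEC31A, an outer coat subunit, by 0.30. With the combination 16 of 22 were higher, KDELR3 most at 1.09, against 15.1% of all genes. Of the other translocon and signal peptide genes 7 of 23 rose, including SEC61G (0.41) and SRPRB (0.36), a subunit of the receptor of the signal recognition particle. Of 12 oligosaccharyltransferase genes, which attach N-glycans, 3 rose, STT3A by 0.17 among them. Of 43 other ER folding genes 10 rose, with CALU, a calcium-binding lumen protein, at 0.34, FKBP14, a prolyl isomerase, at 0.35 and ERO1A, the oxidase that recharges P4HB, at 0.26. Of 25 other ERAD genes 3 rose, SELENOS (0.36), ERLEC1 (0.29) and HM13 (0.26). In these lists 0 genes were lower with simvastatin by edgeR or DESeq2, and at an unadjusted p under 0.05 there were 2, both in the ERAD list. The 15 other genes of UPR signalling had 2 higher, CREB3 by 0.37 and the low BBC3 by 0.50.

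Outside the ER, 0 of 28 cytosolic chaperone genes were called with simvastatin by edgeR or DESeq2, and their median change was 0.00. At an unadjusted p under 0.05, 2 were higher and 1 lower. Of 12 mitochondrial chaperone and protease genes 4 rose, LONP1 by 0.36 and HSPA9, the mitochondrial Hsp70, by 0.24. Of 8 ER-phagy receptor genes 0 were called with either drug by edgeR or DESeq2. At an unadjusted p under 0.05 there were 0 with simvastatin, and 1 higher and 1 lower with irinotecan. With irinotecan, where 12.4% of all genes were called higher and 11.7% lower, the other ER folding genes were 6 higher and 6 lower of 43, the other ERAD genes 1 and 4 of 25, and the oligosaccharyltransferase genes 0 and 4 of 12. The translocon list had 0 higher and 4 lower of 23, and the cytosolic chaperones 4 and 6 of 28. The shares of the folding list lie near those of all genes. Log2 fold changes in that list ran from -0.351 to 0.472. The other genes of UPR signalling were 3 higher and 2 lower of 15, with changes from -0.195 to 2.263. Irinotecan lowered ERO1A by 0.35, SEC61G by 0.36, STT3A by 0.22 and VCP, the ATPase that pulls ERAD clients from the membrane, by 0.17. KDELR3 rose by 0.46 with irinotecan. With the combination 5 of the 28 cytosolic chaperones were higher and 8 lower, against 15.1% and 13% of all genes.

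**Figure D5:**
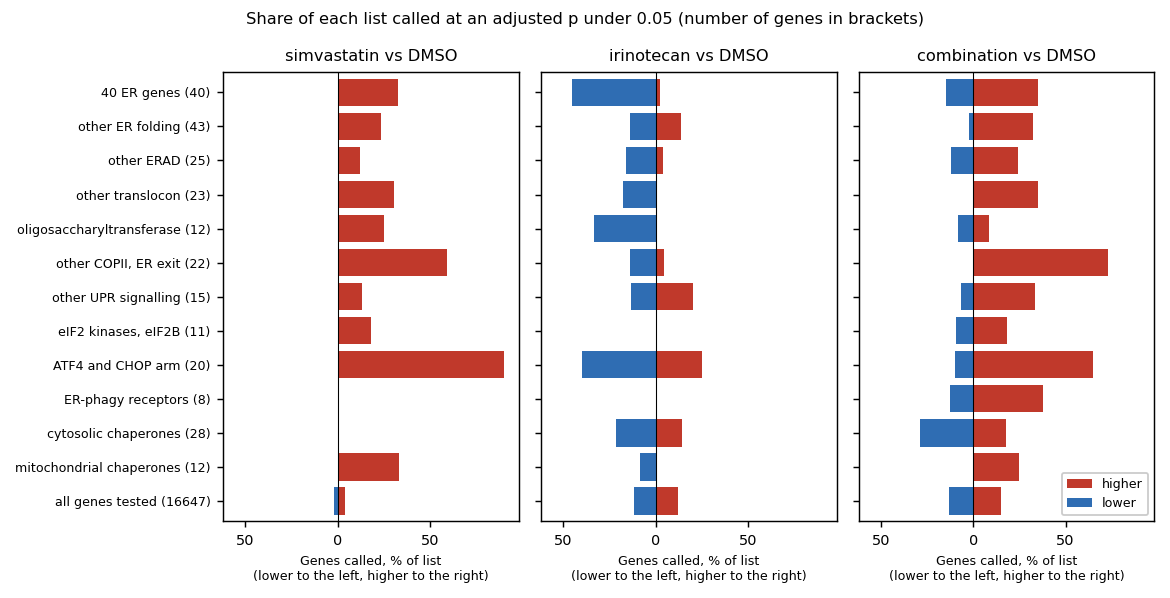
Percent of the tested genes of each list called higher (right of 0) or lower (left of 0) at an adjusted p under 0.05 with simvastatin, irinotecan and the combination against DMSO, with all 16647 genes tested in the bottom row. With simvastatin the ATF4 and CHOP arm (18 of 20), the COPII and ER exit genes (13 of 22) and the 40 ER genes (13 of 40) have the longest bars to the right apart from the mitochondrial list (4 of 12), and the cytosolic chaperones have none.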

How the data were processed

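Gene counts of 16 poly(A) RNA libraries, 4 per group, were analysed. The deposited values are counts, whole numbers per Ensembl gene that had not been normalised. Per the submitters' processing notes, the authors used FastQC, STAR 2.7.1, GRCh38 and DESeq2. Which annotation and strand setting were used for counting is not given here. In R 4.3.3, edgeR 4.0.16 kept genes by filterByExpr (minimum count 10, minimum total count 15), scaled libraries by TMM and fitted robust quasi-likelihood models to all 16 libraries with 1 term per group. For 6 contrasts, two-sided F tests were adjusted by Benjamini-Hochberg over 16647 genes, and calls were made under 0.05. Standard errors come from the change and its F statistic, and intervals are 95%. The common biological coefficient of variation was 5.25%. The fit was tested on simulated data.

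Exon lengths and overlaps came from GENCODE 29, and lengths are the union over all transcripts, which lowers values per kb of genes with many isoforms. Promoter windows were the RefSeq table's. Libraries of a group differed by a chi-squared of 2.58 to 14.8 per degree of freedom, so none was counted as a duplicate. The members and lists were chosen with earlier results of these data known. All 40 members are named, as are ATF4 and CHOP arm genes and up to 4 genes of each other list with the smallest p in a comparison. The promoter stretches shown are called members with an element and, chosen afterwards, members with an element that were not called. Alternatives were DESeq2 1.42.0, median-ratio factors, library sizes alone, no low-count filter, an adjusted p under 0.01, the compared groups alone, the 12 numbered libraries with and without a replicate block, and leaving out each library. In each group 1 library had no number and was called replicate 4. Protein sequences were not used here.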

Additional observations from a re-analysis of the deposited data

Results flagged for a closer look

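Within each gene and group of 4 libraries, the highest and lowest library was compared with the rest. Of 160 such groups 6 had a library far from the others, where chance alone gives about 1 in 20, or 8. HSP90B1 was at 1217.4 CPM in combination replicate 1, against 1170 to 1176 in the other combination libraries. OS9 was at 191.4 CPM in that same library, against 177.6 to 179.7. HERPUD1 was low in irinotecan replicate 3, at 64.5 CPM against 69 to 69.3. XBP1 was low in DMSO replicate 2, at 98.4 CPM against 107.5 to 108.9, and this library overlaps with the irinotecan libraries. DNAJB9 was high in DMSO replicate 3, at 17.1 CPM against 12.7 to 13.5. PDIA3 was high in simvastatin replicate 4, at 1338 CPM against 1256 to 1262.5. None of these libraries was left out of the values reported.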

How the results depend on the processing

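No change of a called member was reversed under any alternative. With library sizes alone in place of TMM factors, irinotecan called 2 members higher and 9 lower, in place of 1 and 18. Of all 16647 genes, 3789 were then called higher and 1079 lower. The cause was not tested. At an adjusted p under 0.01 no member was called higher with the combination against simvastatin. Leaving out 1 library at a time, that count ran from 0 to 1. The counts ran from 11 to 13 higher with simvastatin, from 15 to 18 lower with irinotecan, from 11 to 16 higher and 5 to 7 lower with the combination, and from 13 to 20 higher for the combination against irinotecan. DESeq2 gave 14 higher with simvastatin and 18 lower with irinotecan. The labels do not say that a replicate number marks a shared culture or day, and the deviations of same-numbered libraries had r from -0.065 to 0.2 over 18 pairs, so the numbers were not taken to pair them. That 8 of 12 libraries correlated best with their own number is a hint from the data of something shared. With a replicate block over the 12 numbered libraries, the interaction called 1 member higher, EDEM3 (edgeR adjusted p = 0.0475), and the combination against irinotecan called 25 against 19 without the block, the combination against DMSO 18 against 11. Over all genes the block moved the interaction calls from 1 to 190 and those of simvastatin from 513 to 1141. Low counts limit DERL3, TXNDC5 and ERN1 most.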
